A study of Mus musculus with 18 samples.

Results

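The 96 base pairs described here are the C:G positions of the mOrangeSTOP reporter that lie in the sequence WYC (W, A or T; Y, C or T) or, with the C on the other strand, in its mirror GRW (R, A or G). They were chosen by a rule on sequence alone from the deposited reference bases, with the added demand of at least 1000 quality-passed base calls in each of the 18 libraries, which all 96 met. Earlier results of these data were known when the 96 were chosen. They make up 96 of the 426 C:G positions and 96 of the 674 positions with that coverage, in the stretch from 45 to 723, where 1 is the first base of its reading frame. As a retroviral insert, mOrangeSTOP has no coordinates in the mouse genome. At 43 of them the base 5′ of the C is a T (16 ATC and 27 TTC), and at 53 it is a C (21 ACC and 32 TCC). The C lies on the coding strand at 55 positions and on the other strand at 41. A transition would be silent at 76 of them, would change the amino acid at 16 and would give a stop codon at 4, and 81 are the last base of a codon. These counts read the frame on to 723. Positions 712, 713, 716, 717, 718 and 723 lie past a further in-frame stop codon, so their transitions change no amino acid of the reporter. None of the 96 lies inside the in-frame stop codon 77 that gives the reporter its name.

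AID deaminates cytosine in single-stranded DNA and so leaves a uracil, which in B cells starts somatic hypermutation and class switching of antibody genes. Its preferred sequence is WRC, with a purine 5′ of the C, while SYC (S, C or G) is known as a poor target, so WYC shares the base at −2 with the first and the pyrimidine at −1 with the second. An uracil that is copied as it stands gives a transition, C>T on the strand of the C and G>A on the opposite one. The glycosylase UNG cuts uracil out and leaves an abasic site, opposite which a polymerase can put in any base, and Ugi is a phage protein that inhibits UNG.

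The cells were mouse NIH-3T3 fibroblasts, an established line, that carried the mOrangeSTOP reporter and 2 further retroviral vectors, and all were kept in 1 µM OHT, the ligand of the ER domain, for 11 days. One vector held AID-ER or its catalytically inactive form AID-E58Q-ER, called AID and AID-E58Q below. The other held Ugi, held UNG, or was empty, and the arm with the empty vector is called Control. The 6 combinations had 3 libraries of amplified genomic DNA each, from experiments 1 to 3. Whether each experiment began with its own transduction is not stated, so a p-value here reflects how far these libraries differ among themselves, possibly for technical reasons. Transduced cells were kept under drug selection for the retroviral vectors.

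Positions that the results turn on are printed here to show their sequence, each with up to 7 bases on either side, read on the strand that holds the C, with the C and the 2 bases 5′ of it in capitals. The first 7 are the ATC positions with the highest transition frequencies under Ugi or with called transversions, and 2 of them, 495 and 498, are the C bases of the same palindrome GATC on opposite strands.
position 618: tggacATCacctccc
position 498: gcgagATCaagatga
position 372: agttcATCtacaagg
position 462: ggtacATCcgctcgg
position 303: agttcATCacgcgct
position 495: tcttgATCtcgccct
position 501: gcctcATCttgatct

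The next 3 are TTC positions called in transitions or transversions, and the 3 after them are positions with C at −1 that had large fold changes under Ugi.
position 210: ctcagTTCacctacg
position 369: gcgagTTCatctaca
position 48: gTTCatgcgct
position 222: acggcTCCaaggcct
position 537: actacACCtccgagg
position 621: acatcACCtcccaca

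The last 3 are the lowest position with T and with C at −1 under Ugi, 276 and 273, and position 294, whose background stood apart in a pair of libraries.
position 276: tgtccTTCcccgagg
position 273: agctgTCCttccccg
position 294: cgcgcTCCcacttga
Positions 495, 498 and 501 lie within 7 bases of each other, as the coding strand from 486 to 510 shows with its 5 member bases in capitals: GaagggcgaGatCaaGatgaggctG.

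The libraries held 24915866 to 95011754 calls, and the median coverage of the 96 positions was 38370 to 148628. At those medians a count of 0 allows up to 0.782 substitutions per 10000 calls at the lowest of them and 0.202 at the highest, counting error only, since PCR reads without molecular identifiers are not independent molecules. At 8 of the 96 positions the coverage fell under 10000 in at least 1 library, the lowest being 1464 calls. A:T transversions averaged 6.51 to 6.83 per 10000 calls in the 6 libraries of experiment 3 and 1.09 to 1.89 in the 12 of experiments 1 and 2. The UNG AID library of experiment 1 stood apart in C>A and G>T changes, with 5.99 per 10000 calls over the 96 positions against at most 2.6 in any other library. The Ugi AID library of experiment 3 had the most transitions, and the Ugi AID-E58Q pair from experiments 1 and 2 had fewer G>A transitions at TC than the other AID-E58Q libraries.

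With the UNG inhibitor Ugi present, transitions rose with active AID at many of these positions. In the Ugi arm transitions rose with AID over AID-E58Q at 38 of the 96 (39.6%) and fell at 0, against 22.1% of all 674 positions tested that rose (edgeR quasi-likelihood test, Benjamini-Hochberg adjusted p under 0.05). That share is 149 positions, and the C:G classes listed at the end of the results hold all of them. Of the 674, 248 are A:T positions, which hold no C. This and later shares and medians over the 674 are therefore not those of the 426 C:G positions. Counts by class of C:G position in the Ugi arm are given at the end of the results. The AID libraries lay wholly above the AID-E58Q libraries at 28 of the 38, and all 96 log2 fold changes were above 0, with a median of 2.16 against 0.68 over the 674 positions. Averaged over the 96 positions, transitions stood at 4.89, 3.75 and 19.5 per 10000 calls in the Ugi AID libraries of experiments 1, 2 and 3, against 1.25, 1.13 and 2.68 in the Ugi AID-E58Q libraries, ratios of 3.91, 3.32 and 7.3. The direction was the same in all experiments, and the largest ratio was in experiment 3. With the experiment as a block 65 of the 96 rose. Counts with the block, before adjustment, by other tools or with libraries left out are given for the 96 only, here and below. So are counts without overlap and counts of log2 fold changes above 0. All of these come without the share over the 674, so they do not tell the 96 from other positions. The count was 14 without the Ugi AID library of experiment 3, 59 without that of experiment 2, 20 without the Ugi AID-E58Q library of experiment 1 and 17 without that of experiment 2. In a fit of only the groups compared it was 9.

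**Figure D1:**
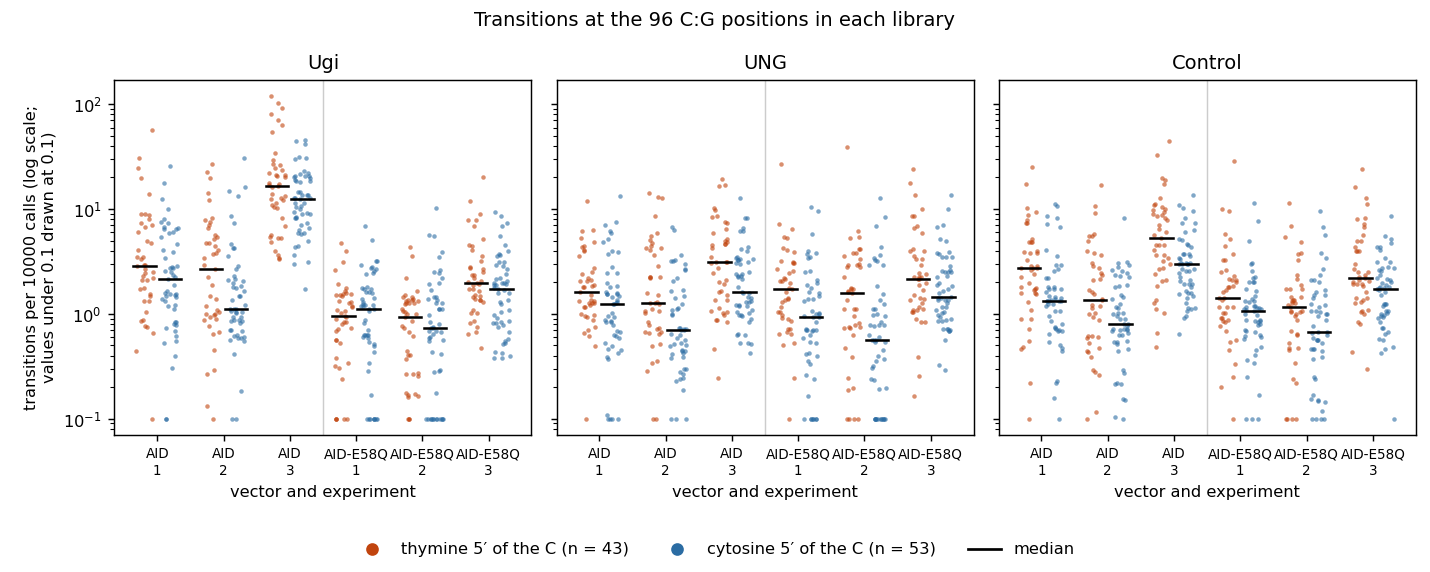
Transitions per 10000 calls (log scale, values under 0.1 drawn at 0.1) at each of the 96 positions in each library, in 3 panels for the Ugi, UNG and Control arms, with the AID libraries of experiments 1, 2 and 3 to the left of the AID-E58Q libraries. Points are positions, coloured by the base 5′ of the C, and bars are medians. The Ugi AID library of experiment 3 lies highest, with position 618 at 119 per 10000 at its top.

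The bases 5′ of the C went with the level. Positions with T at −1 averaged 6.32, 4.72 and 25.6 transitions per 10000 calls in the Ugi AID libraries of experiments 1, 2 and 3, against 1.14, 0.959 and 3.22 in the Ugi AID-E58Q libraries. Positions with C at −1 averaged 3.73, 2.96 and 14.6 in the Ugi AID libraries, against 1.34, 1.27 and 2.23 in the Ugi AID-E58Q libraries. In the Ugi arm, positions with T at −1 thus stood higher with AID in each experiment, and without active AID they were the lower ones in experiments 1 and 2. The ratio of T over C at −1 was 1.69, 1.59 and 1.76 in the Ugi AID libraries, and 1.73, 1.97 and 1.62 in the UNG AID-E58Q and 1.83, 1.33 and 1.99 in the Control AID-E58Q libraries, so T at −1 was also the higher without active AID in those arms. Transitions rose at 20 of 43 positions with T at −1 and at 18 of 53 with C at −1, with median log2 fold changes of 2.20 and 2.13, so the medians were close.

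Among positions with T at −1 the high means came with ATC, and TTC stood no higher than the positions with C at −1 in experiments 1 and 2. The 16 ATC positions averaged 11.5, 8.56 and 43.3 transitions per 10000 calls in the Ugi AID libraries, against 1.28, 1.02 and 4.06 in the Ugi AID-E58Q libraries, ratios of 9.02, 8.38 and 10.7. The 27 TTC positions averaged 3.24, 2.45 and 15.2, against 1.06, 0.922 and 2.73, ratios of 3.06, 2.65 and 5.57. ATC thus stood well above TTC in each Ugi AID library, with the same base at −1. The 21 ACC positions averaged 4.4, 2.19 and 16.1, against 1.5, 1.14 and 1.85, ratios of 2.93, 1.93 and 8.7. The 32 TCC positions averaged 3.3, 3.47 and 13.6, against 1.24, 1.35 and 2.48, ratios of 2.67, 2.57 and 5.47. With C at −1, A and T at −2 differed less, and TCC was the higher of the pair in experiment 2. Transitions rose at 12 of 16 ATC, 8 of 27 TTC, 9 of 21 ACC and 9 of 32 TCC positions, with median log2 fold changes of 3.01, 1.69, 2.33 and 1.78. These are means and counts over positions that share libraries, and no test of the classes was made.

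**Figure D2:**
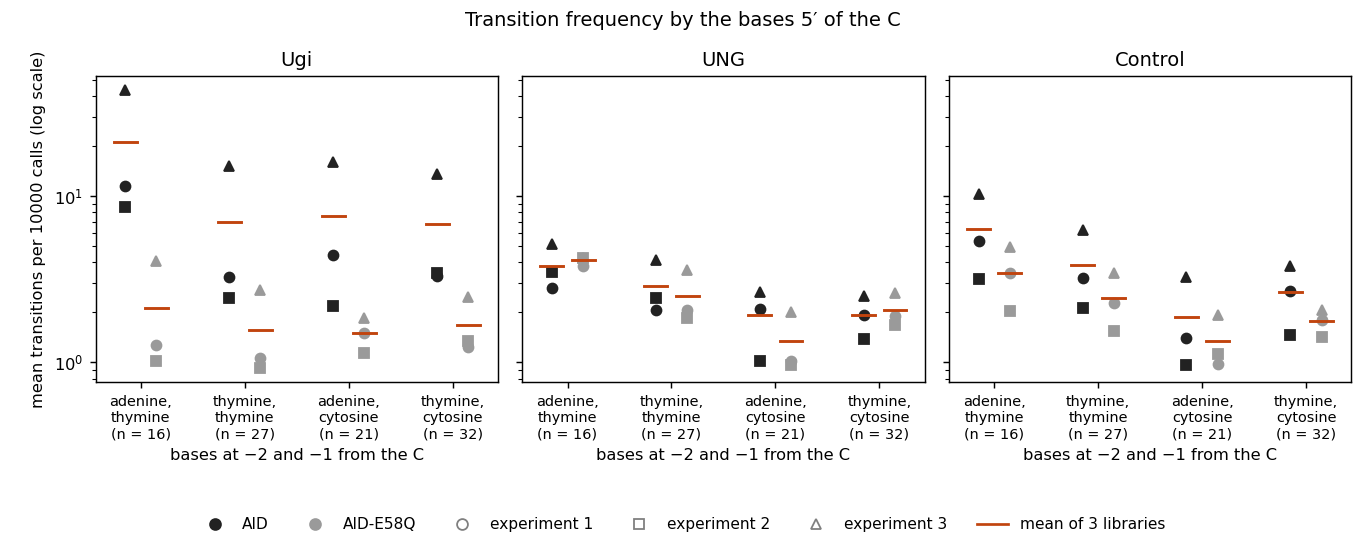
Mean transitions per 10000 calls (log scale) over the positions of each kind, by the bases at −2 and −1 from the C, in the Ugi, UNG and Control arms. Dark marks are AID libraries and grey marks AID-E58Q libraries, 1 mark per experiment, with the mean of 3 libraries as a red line. In the Ugi arm the 16 positions with adenine and thymine stand highest with AID, at 43.3 per 10000 in experiment 3.

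The base 3′ of the C, which the selection did not use, also went with the level. It was not balanced between the bases at −1. An A followed 19 of the 43 positions with T at −1 and 12 of the 53 with C, and a T followed 7 and 19. The parts of the base at −1 and of the base 3′ were not separated. The 31 positions followed by A averaged 8.45, 6.69 and 30.9 transitions per 10000 calls in the Ugi AID libraries, against 1.29, 1.53 and 3.99 in the Ugi AID-E58Q libraries. The 26 positions followed by T averaged 2.54, 1.79 and 15.6, against 0.712, 0.353 and 1.52. The 21 followed by C averaged 2.84, 1.82 and 13.9, against 0.88, 0.58 and 1.84. At the 17 positions followed by G, which are CpG, the averages were 4.79, 3.95 and 12.6, against 2.44, 2.25 and 3.07. Positions before A stood highest with AID in each experiment, and those before G were the higher of the other 3 kinds in experiments 1 and 2 and the lowest in experiment 3. The median log2 fold change was 2.30 before A, 2.33 before T, 2.37 before C and 1.21 before G. The lead of A was thus in the level and not in the median fold change, and 5 of the 17 CpG positions rose. By the means above, AID over AID-E58Q was largest before A in experiment 1 and before T in experiments 2 and 3. The mean of the Ugi AID libraries was also taken by distance from the nearest WRC position. Its median was 7.71 per 10000 calls over the 35 positions within 3 bases of a WRC position. It was 4.99 over the 48 at 4 to 9 bases and 5.86 over the 13 farther away. By base at −1 the same median was 7.32 with T and 5.49 with C, and none of these differences was tested. Silent positions (median 6.23, n = 76) and those where the transition changes the amino acid (median 6.48, n = 16) had like levels, and the 4 where it gives a stop codon had 2.78 to 9.03. The 76 and the 16 include the positions past the further in-frame stop codon.

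Position 618, the C of an ATC on the coding strand, had the highest level of all, and its transition C618T is silent. It had 56.6, 27 and 119 transitions per 10000 calls in the Ugi AID libraries of experiments 1, 2 and 3, against 2.61, 1.1 and 1.97 in the Ugi AID-E58Q libraries. Every AID library stood far above every AID-E58Q library. This was a rise (edgeR, log2 fold change 5.15, SE 0.89, adjusted p = 0.000644, or 4.92e-06 with the experiment as a block). The neighbouring ACC position 621 had 0.835, 0.862 and 8.25 in the Ugi AID libraries, against 0, 0 and 0.425 (log2 fold change 3.78, SE 1.21, adjusted p = 0.0277), and its call held in 10 of 20 alternatives. It was lost without the Ugi AID library of experiment 3 (adjusted p = 0.571, log2 fold change 1.79), without the Ugi AID-E58Q library of experiment 1 or 2, with TMM factors, by limma, with the compared groups alone and without any 1 experiment. Its libraries did not overlap either, and the AID library of experiment 3 was the high one by far.

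Position 498, an ATC on the coding strand in the GATC run, had 30.9, 19.8 and 80.6 transitions per 10000 calls in the Ugi AID libraries, against 1.6, 3.58 and 2.37 in the Ugi AID-E58Q libraries (edgeR, log2 fold change 4.12, SE 0.72, adjusted p = 0.000644). Position 495, the ATC of the other strand in the same GATC, had 19.7, 12.1 and 104, against 1.28, 0.74 and 8.97 (log2 fold change 3.56, SE 1.12, adjusted p = 0.026). Both rose with no overlap of libraries, and both strands of the palindrome thus carried transitions in the same 3 AID libraries. Position 501, 6 bases on from 495 and also ATC on the other strand, had 2.52, 0.773 and 21, against 1.05, 0.763 and 4.5, and did not pass (log2 fold change 1.85, SE 1.05, adjusted p = 0.271). Among these close neighbours with the same 3 bases, 501 was the lowest in each Ugi AID library.

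Position 372 had 14, 6.99 and 70.4 transitions per 10000 calls in the Ugi AID libraries, against 1.27, 0.618 and 1.52 in the Ugi AID-E58Q libraries (edgeR, log2 fold change 4.70, SE 0.91, adjusted p = 0.00121). Position 462, with the C on the other strand, had 8.81, 5.41 and 54.7, against 1.33, 0.991 and 1.44 (log2 fold change 4.17, SE 0.96, adjusted p = 0.00356). Both are ATC, both rose, and at both the libraries did not overlap. Position 210, a TTC, had the largest fold change of the 96, with 8.1, 8.3 and 62.9 in the Ugi AID libraries and 0.681, 0.168 and 0.848 in the Ugi AID-E58Q libraries (log2 fold change 5.45, SE 0.96, adjusted p = 0.000644). All Ugi AID libraries at position 210 stood above all Ugi AID-E58Q libraries.

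With C at −1, position 222, a TCC, was the highest, with 6.72, 30.5 and 31.1 transitions per 10000 calls in the Ugi AID libraries and 1.24, 1.39 and 1.73 in the Ugi AID-E58Q libraries (edgeR, log2 fold change 3.94, SE 0.83, adjusted p = 0.00201). Here the AID library of experiment 2 was close to that of experiment 3. Position 537, an ACC, had 2.33, 3.6 and 21.5, against 0.634, 0 and 0.982 (log2 fold change 3.86, SE 1.00, adjusted p = 0.00735). Position 648, a TCC on the other strand, had 6.03, 16.2 and 41.6, against 5.03, 3.91 and 5.53 (log2 fold change 2.13, SE 0.67, adjusted p = 0.0267). All 3 rose without overlap of libraries. At position 69, another TCC on the other strand, the level was like that of 222, with 6.51, 15 and 45.6, while the AID-E58Q libraries had 0, 10.2 and 6.82. The groups overlapped (log2 fold change 1.98, SE 0.83, adjusted p = 0.102), and its lowest coverage was 2079 calls. At the low end, position 273, a TCC before T, had 0.614, 0.684 and 1.72 in the Ugi AID libraries, against 0.338, 0.68 and 0.392. Position 276, a TTC, had 0.847, 0.267 and 3.41, against 0, 0.175 and 0.474. Neither passed (adjusted p = 0.207 and 0.126), and 273 and 276 lie 3 bases apart. From the lowest to the highest of the 96, the mean of the Ugi AID libraries spanned 1.01 to 67.7 per 10000 calls, with a median of 6.02.

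**Figure D3:**
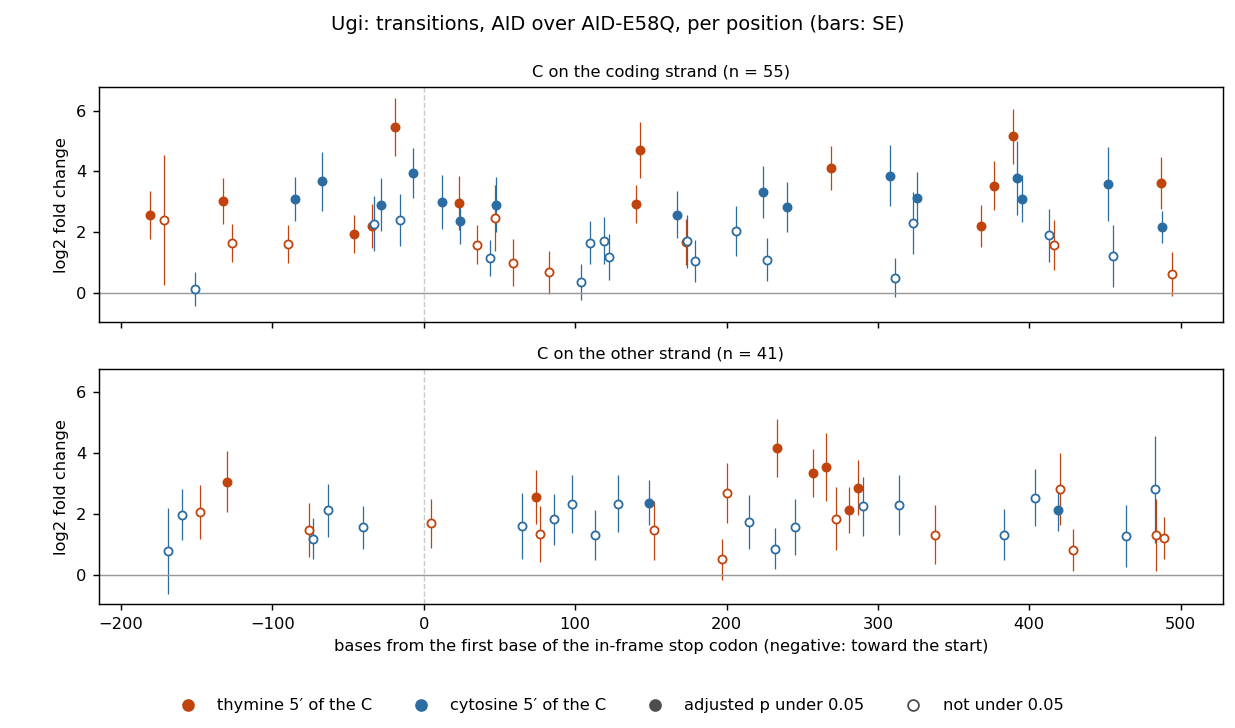
Log2 fold change of transitions, AID over AID-E58Q in the Ugi arm, with its standard error (y axis), at each of the 96 positions by its distance in bases from the first base of the in-frame stop codon (x axis). The upper panel holds the 55 positions with the C on the coding strand and the lower the 41 with the C on the other strand. Filled marks have adjusted p under 0.05, and 29 of them are in the upper panel and 9 in the lower.

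Calls were more frequent where the C lies on the coding strand. There 29 of 55 positions rose, with a median log2 fold change of 2.37, while 9 of 41 rose where it lies on the other strand, with a median of 1.85. The AID levels had no fixed order, with 5.36, 4.05 and 18.4 transitions per 10000 calls in the Ugi AID libraries on the coding strand and 4.28, 3.35 and 21 on the other. Without active AID, the Ugi AID-E58Q libraries had 1.35, 1.14 and 1.69 on the coding strand and 1.12, 1.11 and 4.0 on the other. In the UNG and Control arms the other strand also had the higher background, with 3.19, 2.76 and 4.71 in the UNG AID-E58Q libraries and 3.2, 2.01 and 4.51 in the Control AID-E58Q libraries. On the coding strand these libraries had 1.24, 1.43 and 1.79 and 1.15, 1.1 and 1.72. It was the highest where T is at −1: averaged over the 9 AID-E58Q libraries, 10 of 20 such positions on the other strand exceeded 3 per 10000 calls (median 3.10), against 0 of 23 on the coding strand (median 1.28). At those 20 positions the Ugi AID-E58Q libraries had 1.03, 0.912 and 5.1, the UNG AID-E58Q libraries 4.28, 4.39 and 6.54 and the Control AID-E58Q libraries 4.57, 2.52 and 6.78. With Ugi, the libraries of experiments 1 and 2 were thus the low ones, and that of experiment 3 was not. TC positions outside WYC on the other strand had 1.57, 1.52 and 5.14 in the Ugi, 6.74, 7.48 and 7.91 in the UNG and 5.25, 3.56 and 6.31 in the Control AID-E58Q libraries. The part of this background in the calls of the Ugi arm was not tested.

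**Figure D4:**
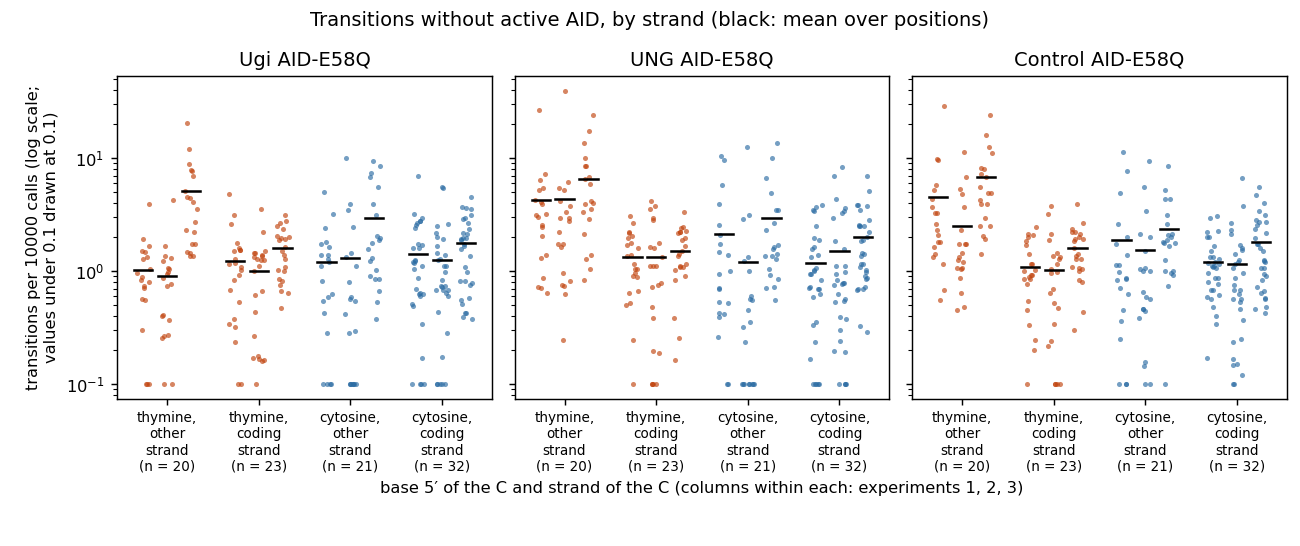
Transitions per 10000 calls (log scale, values under 0.1 drawn at 0.1) without active AID, in the Ugi, UNG and Control arms, by the base 5′ of the C and the strand of the C. Each point is a position, the 3 columns in each place are experiments 1, 2 and 3, and the black bars are means over positions. The 20 positions with thymine and the C on the other strand stand at 6.78 in the Control library of experiment 3 and at 0.912 in the Ugi library of experiment 2.

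Position 303, an ATC on the other strand, had the highest background, with 1.48, 1.65 and 20.4 transitions per 10000 calls in the Ugi AID-E58Q libraries, 27, 39.4 and 24.3 in the UNG AID-E58Q libraries and 28.8, 11.3 and 24.3 in the Control AID-E58Q libraries. With AID it had 24.8, 22.8 and 92.9 in the Ugi arm, 11.8, 12.9 and 16.8 in the UNG arm and 25.3, 17.1 and 44.8 in the Control arm. The AID libraries stood above the AID-E58Q libraries in the Ugi arm, below them in the UNG arm, and overlapped with them in the Control arm. The rise in the Ugi arm (edgeR, log2 fold change 2.56, SE 0.88, adjusted p = 0.0423) is measured against a low AID-E58Q background in experiments 1 and 2, and neither the UNG arm (adjusted p = 0.997) nor the Control arm (0.998) passed. The transition was G303A, a silent change.

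Set against the UNG arm, the Ugi arm had more transitions with active AID. Ugi over UNG in AID, transitions rose at 25 of the 96 positions and fell at 0, against 13.9% of the 674 positions, A:T included (edgeR), and 15 of the 25 had no overlap of libraries. Means over the 96 positions were 4.89, 3.75 and 19.5 per 10000 calls in the Ugi AID libraries, against 2.15, 1.95 and 3.43 in the UNG AID libraries, ratios of 2.28, 1.92 and 5.69 in experiments 1, 2 and 3. With the experiment as a block the count was 51, without the Ugi AID library of experiment 1 or 2 it was 41 or 48, and without that of experiment 3 it was 5. Without the UNG AID library of experiment 1 it was 2 and without that of experiment 2 it was 1, and in a fit of these groups alone it was 0. Position 618 had the largest fold change, with 56.6, 27 and 119 in the Ugi AID libraries and 1.9, 1.06 and 2.12 in the UNG AID libraries (log2 fold change 5.30, SE 0.88, adjusted p = 0.00154). Positions 372 (log2 fold change 4.29, SE 0.88, adjusted p = 0.00609), 537 (log2 fold change 4.11, SE 0.96, adjusted p = 0.00954) and 222 (log2 fold change 3.96, SE 0.82, adjusted p = 0.00609) followed among the called positions without overlap. Positions 462, 69, 606 and 498 came next by the same rule, with log2 fold changes of 3.96, 3.43, 3.20 and 3.13. At 606, an ATC on the coding strand, the values were 4.97, 14.1 and 26.7 in the Ugi AID libraries and 2.21, 1.07 and 1.65 in the UNG AID libraries. By base at −1, 9 of 43 positions with T and 16 of 53 with C rose, the reverse order of the Ugi arm itself, and the medians were 1.49 and 1.98 on the log2 scale.

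Against the empty vector, Ugi gave higher levels that passed at no position in the main edgeR fit, though some positions passed in alternative fits. Ugi over Control in AID, 0 of the 96 positions were called, as were 0% of the 674, while 42 of the 96 had an unadjusted p under 0.05 (edgeR), and DESeq2 called 14 and limma 0. With the experiment as a block 34 rose, and without the Ugi AID library of experiment 1 or 2, or the Control AID library of experiment 3, 17, 25 and 8 did. The log2 fold change was above 0 at 92 of the 96, with a median of 1.42, and the ratios of the means were 1.62, 2.05 and 3.57 in experiments 1, 2 and 3. The like count and median over the 674 are not given here, so these values do not tell the 96 from other positions. Position 618 again led, with 56.6, 27 and 119 in the Ugi AID libraries and 7.39, 0.589 and 7.86 in the Control AID libraries, without overlap (log2 fold change 3.68, SE 0.81, adjusted p = 0.0637, or 0.000772 with the experiment as a block). In the AID-E58Q libraries the ratios of Ugi over Control were 0.617, 0.758 and 0.92, and transitions were called at 0 of the 96 (0% of the 674), 0 before adjustment at p under 0.05, and 0 by DESeq2 and by limma. The interaction, the Ugi over Control difference in AID minus that in AID-E58Q, was called at 0 of the 96 and at 0% of the 674 positions. In it, 14 of the 96 had an unadjusted p under 0.05, 34 with the block, and DESeq2 and limma called 0. It was largest at 618 (log2 difference 3.62, SE 1.13, unadjusted p = 0.00454, adjusted p = 0.58, edgeR).

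Few transitions passed in the Control and UNG arms, although the Control AID mean stood above the AID-E58Q mean in each experiment. In the Control arm the 96 positions averaged 3.01, 1.83 and 5.47 per 10000 calls in the AID libraries, against 2.03, 1.49 and 2.91 in the AID-E58Q libraries, ratios of 1.49, 1.23 and 1.88. Of the 96, 84 had a log2 fold change above 0, with a median of 0.54, and no such count or median over the 674 is given here. Transitions rose at 1 of the 96 (edgeR, or 3 with the block), against 2.52% of the 674 positions. The 1 was position 48, a TTC on the coding strand, with 10.3, 5.52 and 19.8 in the Control AID libraries and 0.915, 1.36 and 1.85 in the Control AID-E58Q libraries (log2 fold change 3.11, SE 0.80, adjusted p = 0.0367). No library of one group overlapped the other there. The call was lost without any 1 of 5 of those 6 libraries, the exception being the Control AID library of experiment 2. The position lies where the depth of 9 libraries stops at a ceiling. In the UNG arm the averages were 2.15, 1.95 and 3.43 in the AID libraries, against 2.07, 2.0 and 3.04 in the AID-E58Q libraries, ratios of 1.04, 0.977 and 1.13. There 0 of the 96 were called (0% of the 674), 1 had an unadjusted p under 0.05, DESeq2 called 1 and limma 0, and with the block 1 rose. The lowest unadjusted p of the UNG arm was at 210, with 2.09, 4.7 and 8.6 in the AID libraries and 0.67, 0.747 and 1.03 in the AID-E58Q libraries, which did not overlap (log2 fold change 2.60, adjusted p = 0.26, edgeR, or 0.0116 with the block). UNG over Control in AID, 0 of the 96 were called (0% of the 674), 3 had an unadjusted p under 0.05, DESeq2 and limma called 0, and the median log2 fold change was -0.35. With the block position 48 was lower, with 1.53, 1.57 and 5.97 in the UNG AID libraries and 10.3, 5.52 and 19.8 in the Control AID libraries (log2 fold change -1.98, adjusted p = 0.9995, or 0.044 with the block). The interaction of UNG with AID was called at 0 of the 96 (0% of the 674), 0 before adjustment at p under 0.05, and 0 by DESeq2 and limma. Over the mean of the 3 arms, transitions rose with AID at 130 of the 674 positions (19.3%). The 674 hold 248 A:T positions, and the share of the 426 C:G positions is not given here. Among the 96, 20 rose, or 47 with the block. That count was 11 without the Control AID or Ugi AID library of experiment 3 or the Ugi AID-E58Q or UNG AID-E58Q library of experiment 2. It was 12 without the UNG AID library of experiment 3 or the Control AID-E58Q library of experiment 1 or 2, and 32 without the Ugi AID library of experiment 2.

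Transversions rose at few of the 96 positions, and those that did in the main edgeR fit, without a block, had T at −1. In the Control arm 2 of the 96 rose, positions 495 and 501, against 3.41% of the 674 positions, A:T included (edgeR). With the experiment as a block 12 rose, 9 of 43 with T at −1 and 3 of 53 with C. The share of the 674 with the block is not given here, and the bases at −1 were not tested against each other. Means over the 96 were 3.22, 2.41 and 3.64 transversions per 10000 calls in the Control AID libraries, against 2.01, 1.52 and 1.75 in the Control AID-E58Q libraries. Over the 16 ATC positions they were 4.4, 4.53 and 6.79, against 1.97, 1.33 and 1.73. Over the 53 with C at −1 they were 2.85, 1.69 and 2.82, against 2.0, 1.39 and 1.81. ATC thus stood above the positions with C at −1 in each Control AID library, while the AID-E58Q libraries did not differ in that way. The ATC means include positions 495 and 501, which averaged 14.9 and 13 over the 3 Control AID libraries. ATC means without these positions are not given here. The log2 fold change had a median of 0.71 over positions with T at −1 and 0.36 over those with C, against 0.24 over the 674.

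Position 495 had 6.25, 16.3 and 22.3 transversions per 10000 calls in the Control AID libraries, against 1.55, 1.21 and 1.72 in the Control AID-E58Q libraries (edgeR, log2 fold change 3.30, SE 0.77, adjusted p = 0.017). Position 501 had 7.85, 18.4 and 12.7, against 2.03, 1.45 and 1.59 (log2 fold change 2.93, SE 0.62, adjusted p = 0.00959). Position 498 between them had 5.41, 4.09 and 10.6, against 1.9, 1.89 and 1.12, without overlap, and passed with the block only (adjusted p = 0.121, or 0.00731 with it). The 3 neighbours thus all stood above their background in the Control arm. Without the Control AID library of experiment 3 or the Control AID-E58Q library of experiment 1 the arm had 1 call, and without the AID-E58Q library of experiment 2 or 3 it had 0.

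Transversions at 501 fell with Ugi over Control in AID: it had 3.99, 1.8 and 1.78 per 10000 calls in the Ugi AID libraries and 7.85, 18.4 and 12.7 in the Control AID libraries (edgeR, log2 fold change -2.36, SE 0.60, adjusted p = 0.0445, or 0.00145 with the experiment as a block). It was the 1 of 96 positions where transversions fell, Ugi over Control in AID, against 2.52% of the 674 that fell. With the block 5 fell, and without any 1 of the 6 libraries 0 did. At 495 the values were 1.64, 2.87 and 3.97 in the Ugi AID libraries and 6.25, 16.3 and 22.3 in the Control AID libraries, also without overlap (log2 fold change -2.40, adjusted p = 0.134, or 0.00717 with the block). The interaction of Ugi with AID at 501 had a log2 difference of -2.96 (SE 0.85, adjusted p = 0.167, or 0.013 with the block). That interaction was called at 0 of the 96 positions, against 0.148% of the 674 that were lower. Among the 96, 7 passed before adjustment (p under 0.05), 2 passed by DESeq2, 0 by limma and 1 without the Ugi AID-E58Q library of experiment 3. Within the Ugi arm 0 of the 96 rose or fell in transversions with AID over AID-E58Q (0% of the 674), 2 had an unadjusted p under 0.05, DESeq2 called 1, lower, and limma 0, and 1 fell without the Ugi AID-E58Q library of experiment 3. Transitions at 495 and 498 rose in this same arm, as given above. In the Control arm, transitions at 498 were 8.84, 5.81 and 17.5 in the AID libraries and 2.48, 1.89 and 2.24 in the AID-E58Q libraries, without overlap (adjusted p = 0.0836, or 0.00934 with the block).

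In the UNG arm transversions rose at 3 of the 96 positions, 210, 369 and 495, and at 6 with the block. The share of the 674, A:T included, was 3.12% (edgeR). Position 369, a TTC on the coding strand, had 9.64, 11 and 11.7 transversions per 10000 calls in the UNG AID libraries, against 2.69, 1.51 and 2.41 in the UNG AID-E58Q libraries (log2 fold change 2.28, SE 0.51, adjusted p = 0.0142). In the other AID libraries it had 2.47, 4.61 and 5.09 with Ugi and 3.16, 1.97 and 2.85 in the Control arm, so the UNG AID libraries stood above all others. UNG over Control in AID, its log2 fold change was 2.02 (SE 0.50, adjusted p = 0.559, or 0.00433 with the block). That comparison had 0 calls among the 96 (0% of the 674), 4 before adjustment (p under 0.05), 1 by DESeq2 and 0 by limma. The interaction of UNG with AID had 0 (0% of the 674), 1 before adjustment, and 0 by DESeq2 and limma. Position 210 had 12.5, 4.55 and 21.8 in the UNG AID libraries, against 1.67, 0.747 and 1.83 in the UNG AID-E58Q libraries (log2 fold change 3.16, SE 0.67, adjusted p = 0.00844). Position 495 had 15.3, 2.7 and 27.5, against 1.63, 1.57 and 2.38 (log2 fold change 2.99, SE 0.77, adjusted p = 0.0348), with the AID library of experiment 2 close to the background. The count was 0 without the UNG AID-E58Q library of experiment 1 or 2, 1 without that of experiment 3 and 5 without the UNG AID library of experiment 2. When only C>G and G>C were counted, 1 position was called in the UNG arm; 210 and 369 no longer passed (adjusted p = 0.123 and 1). The UNG AID library of experiment 1, which stood apart in C>A and G>T changes, was not the highest at 210, 369 or 495, and without it 210 and 369 passed and 495 did not. Over the mean of the 3 arms 4.9% of the 674 rose, A:T included. Of the 96, 5 rose, 210, 369, 495, 498 and 501, and 11 with the block. That count was 3 without the Control AID library of experiment 3, the Ugi AID library of experiment 1 or the Control AID-E58Q or UNG AID-E58Q library of experiment 3, and 9 without the UNG AID library of experiment 2. Ugi over UNG in AID, transversions fell at 0 of the 96, against 2.97% of the 674. Of them, 16 passed before adjustment (p under 0.05), 6 by DESeq2, 1 by limma and 8 with the block, and 6 fell without the UNG AID library of experiment 2.

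**Figure D5:**
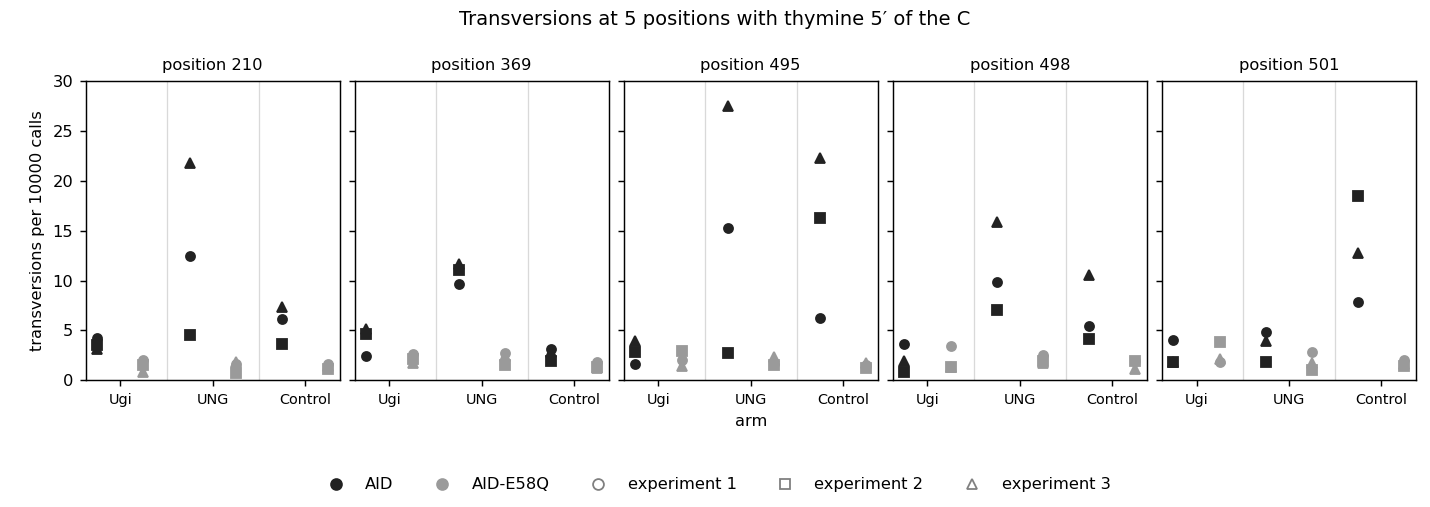
Transversions per 10000 calls (y axis) at the 5 positions that rose over the mean of the 3 arms, in the Ugi, UNG and Control arms (x axis), with AID libraries in a dark shade to the left of AID-E58Q libraries in grey and 1 mark per experiment. Position 369 stands highest in the UNG arm, at 9.64, 11.0 and 11.7, and position 501 in the Control arm, at 7.85, 18.4 and 12.7.

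Position 294, a TCC on the other strand, stood apart without active AID. It had 94.3, 108 and 1.67 transversions per 10000 calls with Ugi and AID-E58Q in experiments 1, 2 and 3, against 2.45, 1.97 and 1.15 in the Control AID-E58Q libraries, and at most 6.95 in all 16 libraries other than the first 2. Nearly all of it was G294T, at 93.5, 108 and 1.38 with Ugi and AID-E58Q. Its transversions were called in no comparison (AID over AID-E58Q in the Ugi arm, log2 fold change -5.46, SE 1.18, adjusted p = 0.142, or 0.0177 with the experiment as a block, edgeR). With it included, the mean of the 96 positions was 2.47, 2.01 and 1.9 in the Ugi AID libraries, against 3.31, 3.09 and 1.67 in the Ugi AID-E58Q libraries. Without it, the mean of the other 95 was 2.48, 2.01 and 1.91, against 2.36, 1.98 and 1.67. Ugi over Control in AID-E58Q, transversions were called at 0 of the 96 (0% of the 674), with 2 at an unadjusted p under 0.05. DESeq2 and the block each called 1, position 294, as did a fit without the Ugi AID-E58Q library of experiment 3, and limma 0. Its transitions under Ugi were 5.91, 0.822 and 20.4 in the AID libraries and 0.54, 0.548 and 7.42 in the AID-E58Q libraries, and they overlapped.

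Set beside the other C:G positions, the 96 lay between WRC and SYC in the Ugi arm, below SRC in level and above it in the ratio to AID-E58Q. The 67 WRC positions averaged 47.4, 38 and 205 transitions per 10000 calls in the Ugi AID libraries, the 124 SRC positions 8.65, 7.62 and 29.5 and the 139 SYC positions 1.61, 1.37 and 4.97, against 4.89, 3.75 and 19.5 at WYC. The ratios of AID over AID-E58Q were 3.91, 3.32 and 7.3 at WYC, 14.6, 11.1 and 38.2 at WRC, 2.36, 2.04 and 6.29 at SRC and 1.39, 1.04 and 1.93 at SYC. Transitions rose at 38 of 96 WYC, 61 of 67 WRC, 47 of 124 SRC and 3 of 139 SYC positions, with median log2 fold changes of 2.16, 4.68, 1.74 and 0.57. By share called, WYC (39.6%) and SRC (37.9%) were close, although SRC has the purine at −1 and not the A or T at −2. In the Control arm 1 of 96 WYC, 16 of 67 WRC, 0 of 124 SRC and 0 of 139 SYC positions rose in transitions, and 2, 21, 0 and 0 in transversions. The differences between these classes were not tested.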

How the data were processed

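The deposited tables give, per the file headers, raw counts of each substitution and of calls with Phred quality over 20 at each reporter position, and the authors' fraction of transitions and transversions, which is the substitution count over those calls. Reads went through CASAVA 1.7, SAMtools 0.1.11 and Novoalign 2.07.04, per the submitters' processing notes, which give no roles. How reads were aligned is otherwise not given in the sources here. Target DNA was amplified for 25 cycles and libraries for 10, per the labels' protocols.

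Counts were fitted over all 674 positions and 18 libraries with edgeR 4.0.16 (quasi-likelihood, log coverage as offset, R 4.3.3), and p-values were adjusted over the 674 by Benjamini-Hochberg. Levels are substitutions per 10000 calls; class values are means over positions. DESeq2 1.42.0, limma 3.58.1, TMM factors, the compared groups alone, the experiment as a block, other coverage limits, trimmed ends, C>G changes alone and leaving out libraries were alternatives. The fits were also run on simulated counts that had the same dispersion at all positions and no shift between experiments. That run does not show how the fits behave with the spread of these libraries. Tables used Python 3.11.15, pandas 2.3.3 and numpy 2.4.6.

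Same-numbered libraries deviated together in all 6 pairs of groups that were compared and all 3 experiments (correlation of deviations 0.121 to 0.631 for transitions and 0.319 to 0.835 for transversions). For transitions the correlations were 0.46 to 0.631 in experiment 3 and at most 0.2915 in experiments 1 and 2. Each deviation was taken from the mean of the 3 libraries of its group. A shift shared by the libraries of experiment 3 alone would thus give positive values in experiments 1 and 2 too. The correlations cannot tell whether the libraries of experiments 1 and 2 pair by number.

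Positions were named by rule: the up to 8 called with the largest fold change without overlap in each comparison, those with the lowest p where fewer than 3 were called, the 3 highest and the 1 lowest under Ugi AID for each base at −1, those with a high AID-E58Q background, and those called in the Control or UNG arm. Members and lists were chosen with earlier results of these data known.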

Additional observations from a re-analysis of the deposited data

Results flagged for a closer look

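At position 303 the fold change of transitions with AID over AID-E58Q had opposite directions in 2 arms, and in the UNG arm it did not pass, as given above. The log2 fold change of AID over AID-E58Q was 2.56 in the Ugi arm and -1.13 in the UNG arm, with AID above AID-E58Q in all 3 experiments with Ugi and below it in all 3 with UNG. The difference between these arms was not tested.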

How the results depend on the processing

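Counts of the 96 positions called moved by over 1.5 times under these alternatives. With the experiment as a replicate block, transitions were called at 3 in Control, 65 in Ugi, 1 in UNG, 47 in the mean of the 3 arms, 34 in Ugi over Control, 1 in UNG over Control and 51 in Ugi over UNG. With the experiment as a replicate block, transversions were called at 12 in Control, 1 in Ugi, 6 in UNG, 11 in the mean of the 3 arms, 5 in Ugi over Control, 1 in UNG over Control, 8 in Ugi over UNG, 2 in the interaction of Ugi with AID and 1 in Ugi over Control in AID-E58Q. With TMM factors, transitions were called at 3 in Control, 23 in Ugi, 1 in UNG and 10 in Ugi over Control. With TMM factors, transversions were called at 3 in the mean of the 3 arms and 0 in Ugi over Control. By DESeq2, transitions were called at 4 in Control, 1 in UNG and 14 in Ugi over Control. By DESeq2, transversions were called at 7 in Control, 1 in Ugi, 5 in UNG, 10 in the mean of the 3 arms, 3 in Ugi over Control, 1 in UNG over Control, 6 in Ugi over UNG, 2 in the interaction of Ugi with AID and 1 in Ugi over Control in AID-E58Q. By limma, transitions were called at 2 in Control, 23 in Ugi, 12 in the mean of the 3 arms and 15 in Ugi over UNG. By limma, transversions were called at 1 in Ugi over UNG. With only the compared groups fitted, transitions were called at 2 in Control, 9 in Ugi, 1 in UNG and 0 in Ugi over UNG. With only the compared groups fitted, transversions were called at 0 in Control, 0 in UNG and 0 in Ugi over Control. Without the first and last 25 positions, transitions were called at 0 in Control and 1 in Ugi over Control. Without the first and last 25 positions, transversions were called at 0 in Ugi over Control. With only C>G and G>C counted, transversions were called at 4 in Control, 1 in UNG, 3 in the mean of the 3 arms, 4 in Ugi over Control and 3 in Ugi over UNG. With a coverage minimum of 10000, transversions were called at 1 in Ugi over UNG. Leaving out 1 library or 1 experiment, with and without the block, transitions were called at 0 to 4 in Control, 0 to 65 in Ugi, 0 in UNG and 5 to 46 in the mean of the 3 arms. They were called at 0 to 32 in Ugi over Control, 0 in UNG over Control and 0 to 57 in Ugi over UNG, and at 0 in the interaction of Ugi with AID, 0 in the interaction of UNG with AID, 0 to 1 in Ugi over Control in AID-E58Q and 0 in UNG over Control in AID-E58Q. Leaving out 1 library or 1 experiment, with and without the block, transversions were called at 0 to 13 in Control, 0 to 1 in Ugi, 0 to 6 in UNG and 0 to 13 in the mean of the 3 arms. They were called at 0 to 7 in Ugi over Control, 0 to 2 in UNG over Control and 0 to 15 in Ugi over UNG, and at 0 to 1 in the interaction of Ugi with AID, 0 in the interaction of UNG with AID, 0 to 1 in Ugi over Control in AID-E58Q and 0 in UNG over Control in AID-E58Q. With the block and without experiment 1, transitions were called at 2 in Control, 59 in Ugi, 33 in the mean of the 3 arms, 30 in Ugi over Control and 49 in Ugi over UNG. With the block and without experiment 3, transitions were called at 2 in Control, 24 in Ugi, 13 in the mean of the 3 arms, 13 in Ugi over Control, 15 in Ugi over UNG and 1 in Ugi over Control in AID-E58Q. Without the Ugi AID library of experiment 2, transitions were called at 59 in Ugi, 32 in the mean of the 3 arms, 25 in Ugi over Control and 48 in Ugi over UNG. Arm names alone stand for AID over AID-E58Q in that arm, and comparisons of arms for AID unless AID-E58Q is named. No direction reversed. Of the 25 calls at single named positions, the block kept 25, DESeq2 kept 25, and leaving out experiment 1, 2 or 3 without a block kept 1, 16 or 17. With only the compared groups fitted, 7 of 23 were kept. The cause was not tested. The median over members was lower than the mean by more than the spread between libraries for UNG AID (1.53), Control AID-E58Q (1.36) and UNG AID-E58Q (1.23) transitions and Control AID transversions (2.26 per 10000 calls). The comparisons of arms in AID-E58Q, and the means without position 294, were added after seeing the data. With 3 libraries a group, and counts of 0 allowing up to 0.782 per 10000 calls, small differences at single positions were not detectable.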
